A study of Mus musculus with 8 samples.

Results

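The 9 genes described here encode non-defensin products of the Paneth cell secretory granule and their close relatives: the lysozymes Lyz1 and Lyz2, the angiogenins Ang, Ang4, Ang5 and Ang6, the intelectin Itln1, and the mucosal pentraxins Mptx1 and Mptx2. They are the 9 rows, of 55414 gene IDs in the count table, whose Ensembl ID carries one of these symbols in the GENCODE mouse annotation, and all 9 were found. RNA-seq counts came from Paneth cells (PCs) of wild-type (WT) mice that received phosphate-buffered saline (PBS, the control) or the inflammatory cytokine tumor necrosis factor (TNF) 3 hours before the small intestine was taken. There were 4 PBS and 4 TNF libraries, and the comparison asks how TNF alters transcription in PCs. Both groups were sorted alike. The study describes its mice as C57BL/6J, each sorted sample as cells of an individual mouse, and the gate as CD24-high, c-Kit-high cells of medium to high side scatter that lack CD31, CD45 and TER119. Neither age nor TNF dose was given in the sources used here.

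PCs lie at the bottom of the intestinal crypts and store antimicrobial proteins in large granules that they release into the crypt lumen. Lysozymes cut the peptidoglycan of the bacterial wall. Angiogenins are small secreted ribonucleases, and Ang4 is the form best known from PCs. Itln1 is a lectin that binds microbial sugars, and the mucosal pentraxins belong to the same family as C-reactive protein and serum amyloid P. In most mouse tissues lysozyme comes from Lyz2, the gene of macrophages and neutrophils, whereas Lyz1 is the lysozyme gene of PCs.

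Several members are recent duplicates, and their levels reported below differ widely within such pairs. For this reason the upstream sequence is shown for 3 pairs in which 1 copy was abundant and the other far lower or at 0. These are Lyz1 and Lyz2, Mptx2 and Mptx1, and Ang4 and Ang5. Each run holds the bases from 250 to 21 upstream of the RefSeq start (GRCm38.p6), 5′ to 3′ on the strand of the gene. Capitals mark bases that differ from the other gene of the pair in a pairwise alignment or have no partner inside it, and bases beyond the ends of the alignment are in lower case. In Lyz1 and Lyz2 (chr10:117292889-117293118 and chr10:117282293-117282522, both on the minus strand) 177 of 213 aligned bases were the same (83.1%), and within the 100 bases nearest to the start 91 were.
Lyz1: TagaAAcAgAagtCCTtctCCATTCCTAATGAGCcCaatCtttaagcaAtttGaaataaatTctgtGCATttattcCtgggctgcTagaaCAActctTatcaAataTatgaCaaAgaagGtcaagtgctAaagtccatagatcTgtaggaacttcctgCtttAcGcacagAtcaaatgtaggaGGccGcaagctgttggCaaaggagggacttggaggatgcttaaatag
Lyz2: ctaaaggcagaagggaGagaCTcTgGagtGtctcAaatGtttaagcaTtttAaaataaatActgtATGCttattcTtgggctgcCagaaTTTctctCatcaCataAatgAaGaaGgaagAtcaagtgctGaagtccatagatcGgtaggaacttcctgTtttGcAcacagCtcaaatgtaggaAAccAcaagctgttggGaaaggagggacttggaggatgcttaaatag
In Mptx2 (chr1:173277777-173278006, minus strand) and Mptx1 (chr1:174330268-174330497, plus strand) 178 of 209 aligned bases were the same (85.2%).
Mptx2: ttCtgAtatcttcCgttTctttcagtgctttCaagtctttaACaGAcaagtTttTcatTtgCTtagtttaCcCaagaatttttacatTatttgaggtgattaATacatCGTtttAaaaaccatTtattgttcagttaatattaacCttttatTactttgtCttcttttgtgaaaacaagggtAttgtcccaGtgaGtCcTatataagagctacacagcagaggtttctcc
Mptx1: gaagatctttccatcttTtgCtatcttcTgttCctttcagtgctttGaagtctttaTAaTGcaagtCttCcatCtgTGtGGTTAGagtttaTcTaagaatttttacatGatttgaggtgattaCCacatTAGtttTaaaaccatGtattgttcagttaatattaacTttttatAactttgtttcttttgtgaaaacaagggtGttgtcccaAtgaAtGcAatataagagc
In Ang4 (chr14:51773611-51773840, minus strand) and Ang5 (chr14:43956819-43957048, plus strand) 189 of 213 were the same (88.7%), and the run of Ang6 did not differ from that of Ang5 at any of its 230 bases.
Ang4: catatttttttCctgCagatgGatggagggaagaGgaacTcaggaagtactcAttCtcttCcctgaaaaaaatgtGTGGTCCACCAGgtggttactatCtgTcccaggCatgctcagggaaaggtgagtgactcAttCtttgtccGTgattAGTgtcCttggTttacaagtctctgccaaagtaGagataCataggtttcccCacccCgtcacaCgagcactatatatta
Ang5: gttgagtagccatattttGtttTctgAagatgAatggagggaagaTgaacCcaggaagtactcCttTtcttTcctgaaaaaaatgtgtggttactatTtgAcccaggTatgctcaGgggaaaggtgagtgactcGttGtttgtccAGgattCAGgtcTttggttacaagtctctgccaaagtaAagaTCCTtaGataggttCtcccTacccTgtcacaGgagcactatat
Each run was also searched on both strands for CTTTGAT, a core of sites bound by TCF factors of the Wnt pathway. It was in none of the 9 members and in 3.01% of the corresponding runs of all 32851 RefSeq promoters, which describes these letters only.

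Similarity within the transcripts matters for the counts. The coding sequences of Lyz1 (GRCm39, chr10:117123698-117128775, minus strand) and Lyz2 (chr10:117111557-117118346, minus strand) differed at 22 of 444 bases. The first 240 coding bases are given from GENCODE, since they show how closely spaced the bases are that tell reads of the genes apart, with the 17 differing bases in capitals.
Lyz1 coding sequence: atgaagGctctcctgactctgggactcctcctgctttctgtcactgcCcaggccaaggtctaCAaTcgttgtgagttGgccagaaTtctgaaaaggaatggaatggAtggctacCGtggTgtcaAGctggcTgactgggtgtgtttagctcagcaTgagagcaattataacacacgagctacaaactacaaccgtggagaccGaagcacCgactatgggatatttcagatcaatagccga
Lyz2 coding sequence: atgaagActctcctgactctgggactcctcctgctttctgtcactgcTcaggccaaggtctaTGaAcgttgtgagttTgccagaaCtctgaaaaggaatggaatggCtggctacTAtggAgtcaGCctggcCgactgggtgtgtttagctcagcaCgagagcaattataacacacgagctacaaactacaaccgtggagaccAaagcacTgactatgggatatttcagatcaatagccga
Of the 75-base stretches of the canonical transcript, 93.8% of those of Lyz1 and 86.7% of those of Lyz2 were found in no transcript of another gene. For Mptx1 and Mptx2, whose coding sequences were 91.9% identical, it was 89.9% for each. The value was 99.2% in Ang4, 95.9% in Ang5 and 96.7% in Ang6, and Itln1 shared none. It was lowest in Ang, at 66.2%, and Ang (chr14:51328534-51341074, plus strand) shares 1387 exonic bases with Rnase4 on the same strand. Exons of Lyz2 and Ang4 also overlap noncoding genes on the opposite strand, by 534 and 493 bases. The counting tool, its strand setting and its treatment of shared reads were not given in the sources used here. Counts of Lyz2, Mptx1 and Ang in particular are therefore uncertain. The study reports many multi-mapped reads, with the similar alpha-defensin genes making assignment hard. Shares of all counts and ranks given below therefore also depend on how such reads were counted.

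The libraries held 23824717 to 32576077 counts over 16712 to 19135 detected genes. TNF replicate 4 stood apart from the other 7 libraries. Its TMM scaling factor (the edgeR factor that adjusts library size for composition) was 0.448, against 0.995 to 1.36 elsewhere, and it alone had a high score on the second principal component. Normalized values in this library, of abundant and scarce genes alike, therefore lie far above the plain shares of counts. The comparisons of the members between TNF and PBS below are given with and without this library. Among marker lists, the summed normalized CPM (counts scaled to a common library total) of 7 other Paneth genes were 162483 to 242456 in PBS, 223460.5 to 255921 in the other 3 TNF libraries and 801701 in TNF replicate 4. Of these 7 genes Defa21 and Sox9 were called higher in TNF, where 23.4% of all tested genes were. Both were also called without TNF replicate 4 (log2 fold change then 0.68 and 0.71, edgeR adjusted p = 0.00481 and 6.88e-05). Defa21 was not called without PBS replicate 1 (adjusted p = 0.106), nor Sox9 with library size alone as the scaling (adjusted p = 0.532). The genes of the gate, Kit and Cd24a, were called lower over all libraries (-1.83 and -0.59, adjusted p = 6.96e-06 and 0.0114). The sum of enteroendocrine markers was 25.5 to 33.1 in PBS, 47.1 to 55.8 in the other 3 TNF libraries and 121.7 in TNF replicate 4, and that of tuft markers was 52.9 there against at most 27.3 elsewhere. Of 6 stem cell markers 4 were called lower in TNF and none higher, where 19.6% of all tested genes were called lower. In bulk samples fewer cells of a type and less RNA per cell cannot be told apart. Of 15 myeloid markers, 7 were at 0 in all libraries (Adgre1, Tyrobp, Fcer1g, Ccr2, S100a8, S100a9 and Mpo).

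In these counts Lyz1, Itln1, Mptx2 and Ang4 were among the most abundant transcripts. Ang, Mptx1 and Lyz2 stood far below them, and Ang5 and Ang6 were not detected above 1 count. Per kilobase (kb) of exon, Lyz1 stood at 111225 ± 19497 normalized CPM per kb in PBS (SD, n = 4), which ranked 2 by mean among the 54749 genes with an annotated length. Itln1 followed at 42393 ± 7468 (rank 8), Mptx2 at 9043 ± 699 (rank 10) and Ang4 at 6503 ± 1281 (rank 12). Far below came Ang at 18.1 ± 2.63 (rank 635), Mptx1 at 14.8 ± 14.3 (rank 801) and Lyz2 at 2.75 ± 0.712 (rank 4374). In PBS the per-kb ranges of neighbours in this order did not overlap for Lyz1 and Itln1, Itln1 and Mptx2, Mptx2 and Ang4, or Mptx1 and Lyz2, whereas Ang (15.9 to 21.5) lay within the range of Mptx1 (6.70 to 36.2). That overlap rested on PBS replicate 1. Without it Mptx1 stood at 7.63 ± 0.804 normalized CPM per kb (SD, n = 3, rank 1683), at most 8.10 and below every value of Ang. Mptx2 and Ang4 changed places when the longest transcript gave the length, with Ang4 then at 9611 and Mptx2 at 9043. The order of the TNF means was the same for these 7 genes, but not that within every TNF library. In TNF replicate 3 Ang4 (5190) stood above Mptx2 (3511). In TNF replicate 4 Mptx1 (28.9) and Lyz2 (19.3) stood above Ang (15.2).

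**Figure D1:**
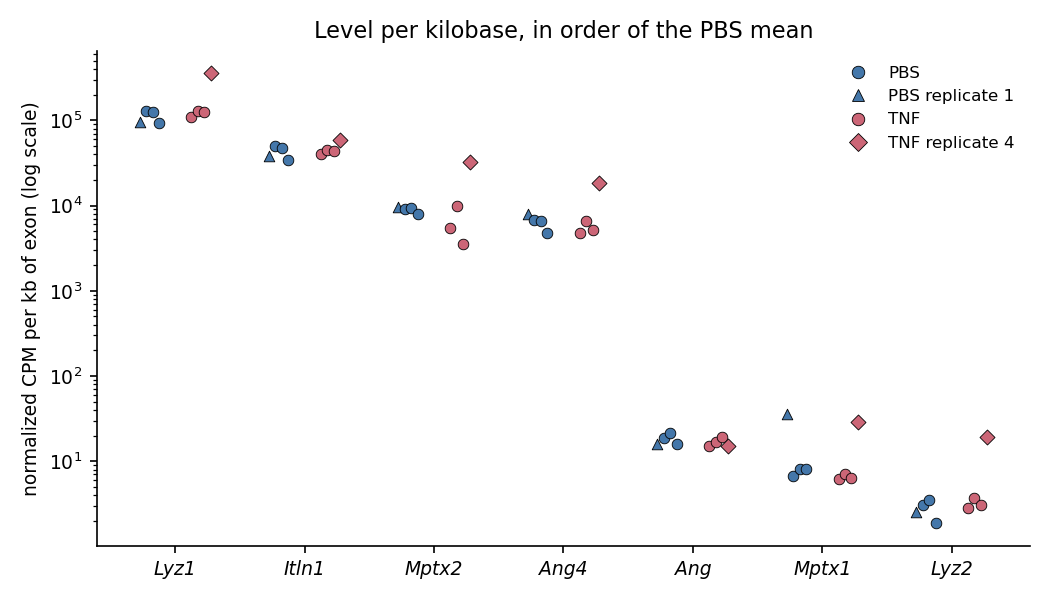
Normalized CPM per kb of exon (vertical axis, log scale) of the 7 detected members in each library, ordered by the PBS mean. Circles are single libraries of PBS (blue) and TNF (red), the triangle is PBS replicate 1 and the diamond TNF replicate 4. Lyz1, Itln1, Mptx2 and Ang4 lie at 3511 or more in every library and Ang, Mptx1 and Lyz2 at 36.2 or less.

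The spread between duplicates was wide. On the per-kb scale the level of Lyz1 was 18443 to 49751 times that of Lyz2 in the same library, with the lowest ratio in TNF replicate 4. The level of Mptx2 was 267.5 to 1402 times that of Mptx1, with the lowest in PBS replicate 1. Ang5 had 0 counts in all 8 libraries. With 3 counts as the limit that a count of 0 allows in a library, the per-kb level of Ang5 was at least 31926-fold lower than that of Ang4 in the library with the fewest Ang4 counts. Ang6 had 1 count, in TNF replicate 2, and 0 in the other 7 libraries. The limit of 3 counts was 0.0921 to 0.126 plain CPM and covers counting error only.

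Of all counts, the 9 members together held 25.1% ± 1.04 in PBS (SD, n = 4) and 24.4% ± 1.56 in TNF (n = 4). Lysozymes, almost wholly Lyz1, held 16.5% ± 0.968 in PBS and 17.3% ± 2.13 in TNF. Intelectin held 6.41% ± 0.345 and 5.27% ± 1.24, the angiogenins 1.36% ± 0.270 and 1.15% ± 0.244, and the pentraxins 0.847% ± 0.0943 and 0.679% ± 0.381. Ang4 made up 99.2% to 99.8% of the angiogenin counts, and Mptx2 99.6% to 99.9% of the pentraxin counts. Without TNF replicate 4 the TNF means were 16.2% for lysozymes, 5.89% for intelectin, 1.04% for angiogenins and 0.517% for pentraxins. The ranges of the groups overlapped for lysozymes, angiogenins and pentraxins, and the TNF values of intelectin (3.42% to 6.11%) reached into the PBS range (6.04% to 6.76%).

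None of the members was called between TNF and PBS. In the quasi-likelihood test of edgeR over all 13368 tested genes, 0 of the 7 members tested had an adjusted p under 0.05, where 43.0% of all tested genes did (5747 genes, 23.4% called higher and 19.6% called lower in TNF). At an unadjusted p under 0.05 there was 1 member in this fit, Lyz2, against 50.6% of all tested genes. Without TNF replicate 4 it was again 0 of 7 at the adjusted threshold, where 50.4% of the tested genes were called, and 1 at the unadjusted one, Mptx1, against 56.5%. DESeq2 called 0 of the 5 members for which it gave an adjusted p, and limma-voom 0 of 7. Ang5 and Ang6 did not pass the filter on low counts. For all 7 members the values of the groups overlapped, whereas they did not for 42.1% of all tested genes. A p that misses the threshold does not show that the levels were alike. Of all called genes 54.3% were higher in TNF, but with library size alone as the scaling 3182 genes were called, 23.8% of them higher, and the median log2 fold change of all genes moved from 0.03 to -0.38.

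**Figure D2:**
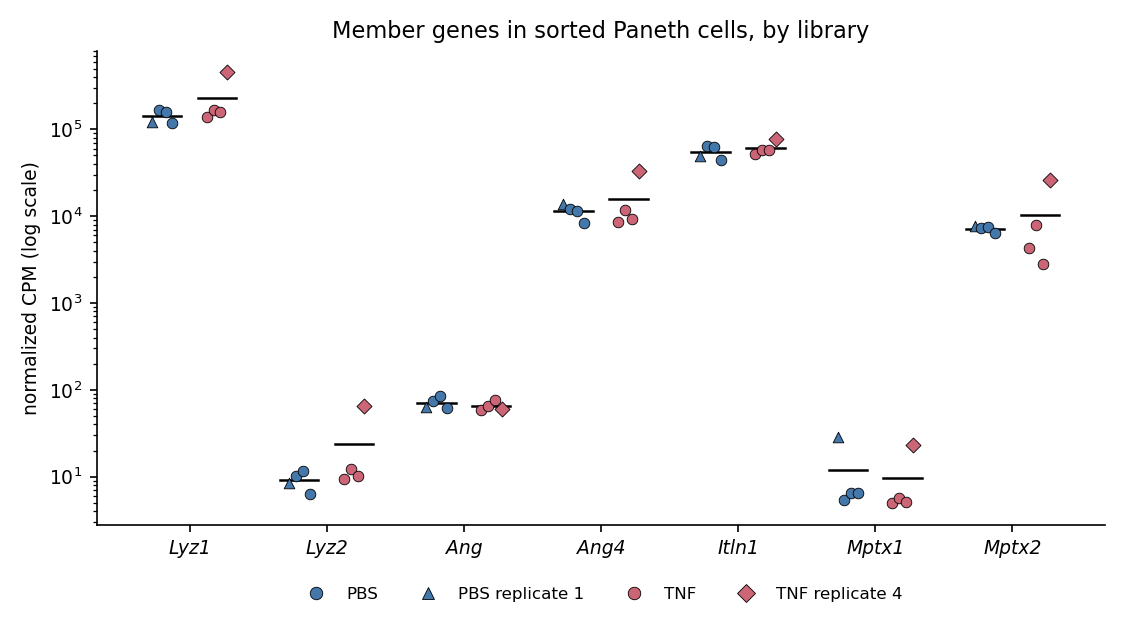
Normalized CPM (vertical axis, log scale) of the 7 detected members in each of the 4 PBS (blue) and 4 TNF (red) libraries, with a bar at each group mean. TNF replicate 4 (diamond) is the highest TNF library for every gene but Ang, and PBS replicate 1 (triangle) is the highest PBS library for Mptx1.

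Lyz1, the PC lysozyme, read 121496, 165910.2, 160017 and 118933 normalized CPM in PBS replicates 1 to 4, and 139824, 165439.9, 157915 and 454156 in TNF replicates 1 to 4. The first 3 TNF values lay within the PBS range and the fourth far above it. TNF differed from PBS by 0.70 on the log2 scale (SE 0.57, edgeR adjusted p = 0.346), a value that fell to 0.14 when TNF replicate 4 was left out (SE 0.20, adjusted p = 0.594). As a share of counts Lyz1 reached 20.4% in TNF replicate 4, against 15.3% to 17.4% in the other libraries.

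Lyz2, the lysozyme of myeloid cells, had 312, 276, 297 and 276 counts in PBS and 266, 352, 291 and 749 in TNF. In normalized CPM these were 8.36, 10.3, 11.7 and 6.24 in PBS and 9.44, 12.2, 10.2 and 64.3 in TNF. TNF replicate 4 lay far above the other 7 libraries, which ran from 6.24 to 12.2. The log2 fold change was 1.37 (SE 0.58, edgeR adjusted p = 0.0805), and it was 0.24 (SE 0.19, adjusted p = 0.327) without that library. Without the filter on low counts the adjusted p was 0.00690, and leaving out TNF replicate 1 or 3, which keeps TNF replicate 4 among fewer libraries, gave 0.0371 and 0.0470. The summed myeloid markers were at 9.21 to 10.6 normalized CPM in PBS, 13.6 to 18.9 in TNF replicates 1 to 3, where Lyz2 was at 9.44 to 12.2, and 20.4 in TNF replicate 4. Cd14, the one gene of the list called higher, read 1.78 to 2.92 in PBS and 6.46 to 11.9 in TNF, and 7 of the 15 markers were at 0 throughout. Summed over the 14 markers without Cd14 the values were 6.62 to 7.72 in PBS, 6.14 to 7.58 in TNF replicates 1 to 3 and 8.50 in TNF replicate 4. Csf1r (log2 fold change 0.51, edgeR adjusted p = 0.0721) and Ctss (-0.26, adjusted p = 0.349) were not called. The leukocyte marker Ptprc had 9 counts in TNF replicate 4 (0.773 normalized CPM), 0 to 1 in the other TNF libraries and 3 to 10 in PBS (0.112 to 0.394). Their part in the result was not tested. Lyz2 numbered 0.0525 to 0.0736 counts per 1000 Lyz1 counts in 7 libraries and 0.142 in TNF replicate 4, and whether any of these reads stem from Lyz1 was not tested.

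Among the angiogenins, Ang4, a bactericidal ribonuclease, read 13896, 11997, 11605 and 8441 normalized CPM in PBS and 8477, 11791, 9166 and 32893 in TNF. Its log2 fold change was 0.44 (SE 0.45, edgeR adjusted p = 0.460). It turned to -0.21 (SE 0.19, adjusted p = 0.371) without TNF replicate 4 and to -0.24 (adjusted p = 0.395) with library size alone. TNF replicates 1 to 3 lay within the PBS range, and TNF replicate 4 above it. Ang acts in many tissues on vessel growth and on the cleavage of tRNA. Its values were 63.2, 74.4, 84.1 and 62.4 in PBS and 59.3, 65.4, 75.8 and 59.7 in TNF, so that TNF replicate 4 lay among the other TNF libraries on this scale. In plain CPM, which leaves out the TMM factor, Ang was at 26.7 in TNF replicate 4 and at 65.1 to 89.6 in the other 7 libraries. The log2 fold change of Ang was -0.13 (SE 0.14, adjusted p = 0.481), with a range of -0.48 to -0.04 over all 16 alternative fits. Without TNF replicate 4 it was -0.07 (SE 0.13, adjusted p = 0.661). Rnase4, which shares exons with Ang, was not called either (0.25, SE 0.24, adjusted p = 0.439), and read 952 in TNF replicate 4 against 420 to 556 elsewhere.

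Itln1 read 49341, 64415, 62194 and 44494 normalized CPM in PBS and 52050.0, 58209, 57475 and 76423 in TNF. TNF replicates 1 to 3 lay within the PBS range and TNF replicate 4 above it. The fitted log2 difference of Itln1 was 0.15 (SE 0.37, edgeR adjusted p = 0.774). It was 0.04 without TNF replicate 4 (adjusted p = 0.889) and -0.28 with library size alone (adjusted p = 0.248). The direction of Itln1 thus depended on the scaling, whereas its share of counts in TNF replicate 4, at 3.42%, was the lowest of all libraries and the rest lay between 5.76% and 6.76%.

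Among the mucosal pentraxins, Mptx2 read 7693, 7218, 7409.5 and 6401 normalized CPM in PBS, which is a narrow range, and 4289.8, 7809.7, 2788 and 25989.5 in TNF. The TNF libraries therefore lay on both sides of the PBS range, 2 below it and 2 above it. Its log2 fold change was 0.51 (SE 0.59, edgeR adjusted p = 0.513), and -0.52 (SE 0.27, adjusted p = 0.137) without TNF replicate 4. With library size alone it was -0.32 (adjusted p = 0.487). Mptx1 had 1080, 144, 164 and 286 counts in PBS and 140, 162, 144 and 269 in TNF. In normalized CPM, PBS replicate 1 (28.9) and TNF replicate 4 (23.1) stood out, and the other 6 libraries lay between 4.97 and 6.47. The log2 fold change of Mptx1 was -0.36 (SE 0.65, adjusted p = 0.686), and 1 library on either side decided it, since it was -1.18 (SE 0.53, adjusted p = 0.0859) without TNF replicate 4 and 0.55 (adjusted p = 0.406) without PBS replicate 1.

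In PBS replicate 1, where Mptx1 was high, 4 of 7 markers of goblet cells, the mucus-secreting cells of the same epithelium, were also at their highest among the PBS libraries (Muc2, Clca1, Fcgbp and Zg16). The other 3 (Tff3, Spdef and Ccl9) lay within the range of the other PBS libraries. The calcium-activated channel regulator Clca1 read 554 normalized CPM there and 41.1 to 44.0 in the other PBS libraries. The mucus protein Fcgbp read 1129 there and 551 to 657 in the others. The sum of all 7 goblet markers was 5228, against 3222 to 3492 in the other 3 PBS libraries and 6206 to 7084 in TNF. In TNF replicate 4, where Mptx1 was also high, Muc2 (2721), Fcgbp (150) and Spdef (86.9) were the lowest of the TNF libraries. Tff3, Clca1, Zg16 and Ccl9 were the highest of them there, and the sum of 6206 was the lowest. The part of goblet cells in the Mptx1 values was not tested.

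**Figure D3:**
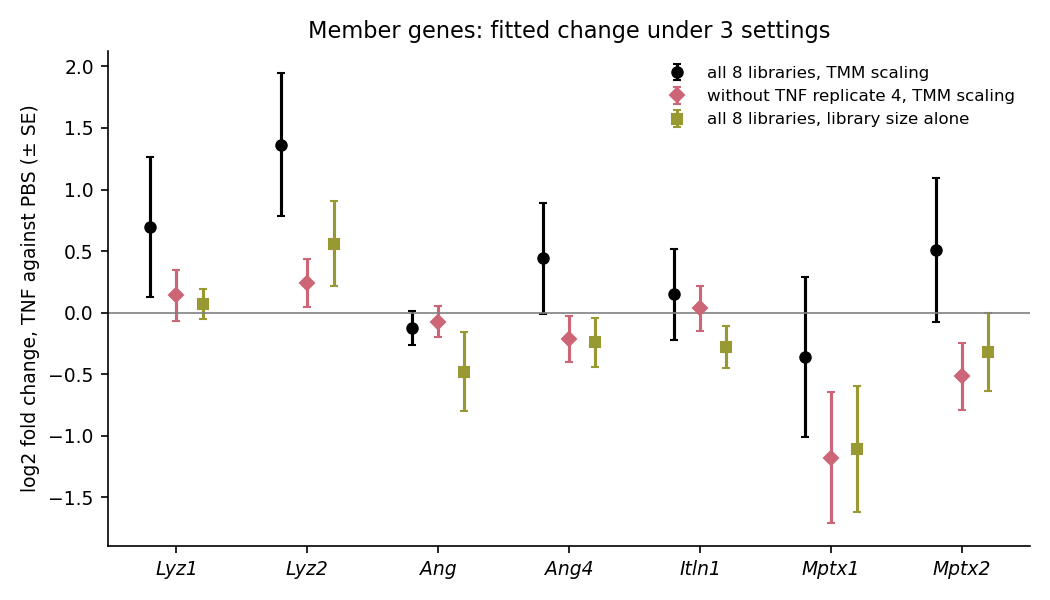
Log2 fold change of TNF against PBS with its SE (vertical axis) for the 7 tested members, fitted with all 8 libraries and TMM scaling (black circles), without TNF replicate 4 (red diamonds) and with all libraries scaled by library size alone (olive squares). Ang4 and Mptx2 lie above 0 in the first fit and below 0 in the other two.

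TNF replicate 4 differed from the other TNF libraries by unequal amounts among the members. Against the mean of the other 3 TNF libraries, its normalized level was 6.06 times as high for Lyz2, 5.24 times for Mptx2, 4.43 times for Mptx1, 3.35 times for Ang4 and 2.94 times for Lyz1. For Itln1 it was 1.37 times as high and for Ang 0.893 times. As a share of counts the same ratios were lower, at 2.59 for Lyz2, 2.26 for Mptx2, 1.89 for Mptx1, 1.43 for Ang4, 1.25 for Lyz1, 0.582 for Itln1 and 0.380 for Ang, so that Itln1 lay above the other TNF libraries on the first scale and below them on the second. Ratios of counts within a library do not depend on the scaling, and each member was therefore also set against Lyz1.

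Itln1 numbered 406, 388, 389 and 374 counts per 1000 Lyz1 counts in PBS and 372, 352, 364 and 168 in TNF. All 4 TNF values lay below all 4 PBS values, although by little for the first 3. The log2 difference was -0.38, with a two-sided exact permutation p of 0.0286, the smallest that 70 assignments of the libraries allow, and 0.171 after Benjamini-Hochberg adjustment over 6 members. Without TNF replicate 4 the difference was -0.10 (exact permutation test, adjusted p = 0.171). Ang numbered 0.521, 0.449, 0.526 and 0.525 per 1000 Lyz1 counts in PBS and 0.424, 0.396, 0.480 and 0.131 in TNF. The groups overlapped, and the log2 difference of -0.65 (exact permutation p = 0.0571, adjusted p = 0.171) became -0.22 without TNF replicate 4 (exact permutation test, adjusted p = 0.171). Both genes thus were lowest relative to Lyz1 in TNF replicate 4.

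Ang4 numbered 114, 72.3, 72.5 and 71.0 per 1000 Lyz1 counts in PBS and 60.6, 71.3, 58.0 and 72.4 in TNF. The value of TNF replicate 4 lay next to those of PBS replicates 2 to 4, and PBS replicate 1 stood above the rest. Mptx2 numbered 63.3, 43.5, 46.3 and 53.8 in PBS and 30.7, 47.2, 17.7 and 57.2 in TNF. Here the values of TNF replicates 1 and 3 were below every PBS value, while the other TNF values lay inside the PBS range. The log2 differences were -0.31 for Ang4, -0.56 for Mptx2, -0.78 for Mptx1 and 0.37 for Lyz2. The exact permutation p was 0.171 for Ang4 and 0.257 for each of the others (adjusted p = 0.257 for all 4). Without TNF replicate 4 the differences were, in the same order, -0.36, -0.80, -0.92 and 0.11 (exact permutation test, adjusted p = 0.274, 0.171, 0.274 and 0.514). Leaving out PBS replicate 1 gave -0.14 for Ang4 and -0.15 for Mptx1, and leaving out TNF replicate 3 gave -0.23 for Mptx2. None of the 6 ratios passed the test after adjustment. With a smallest possible exact p of 0.0286, 1 ratio alone could not have passed, so this outcome says little about any single member.

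**Figure D4:**
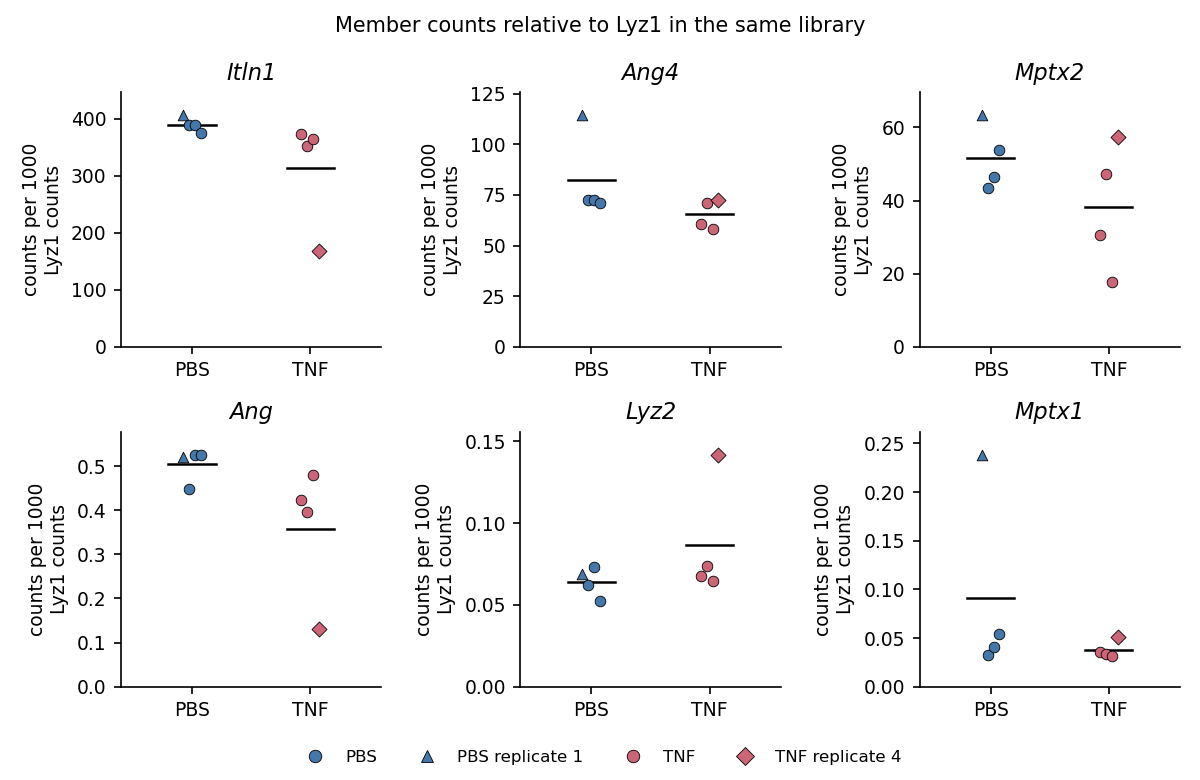
Counts of each of 6 members per 1000 Lyz1 counts of the same library (vertical axes, linear from 0) in PBS (blue) and TNF (red), with bars at the means, the triangle for PBS replicate 1 and the diamond for TNF replicate 4. Itln1 is the one member whose groups do not overlap (374 to 406 against 168 to 372).

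The genes whose log2 normalized CPM ran most alike with each member over the 8 libraries were taken among 8198 other protein-coding genes with a mean of at least 5 normalized CPM. All points share their libraries and scaling factors, TNF replicate 4 lies far from the others for several of these genes, and the correlations are descriptions. For Lyz1 these were Jtb, Defa26 and Defa24 (Pearson r = 0.995, 0.994 and 0.994). For Lyz2 they were Vmp1, Ptpmt1 and Defa24 (0.995, 0.995 and 0.994). Defa24, an alpha-defensin, read 453286 normalized CPM in TNF replicate 4 and 130481 on average in the other libraries. For Ang4 they were C1galt1c1, Arpc1a and Mrps21 (0.980, 0.978 and 0.977), for Mptx2 Coa4, Pef1 and Mocs2 (0.980, 0.977 and 0.970), and for Itln1 Adk, Ftl1 and Nutf2 (0.973, 0.972 and 0.967). The values were lower for Ang, with Maged1, Ptdss1 and Macrod1 (0.899, 0.893 and 0.876), and for Mptx1, with Terf1, Zg16 and Galt (0.874, 0.835 and 0.831). Zg16 is a lectin of goblet cells. Among the members, Lyz1 and Lyz2 had an r of 0.990, Lyz1 and Itln1 of 0.868 and Lyz1 and Ang of -0.18. Over the 7 libraries without TNF replicate 4 these were 0.897, 0.944 and 0.652, so that the value of Lyz1 and Ang changed sign. The values of Lyz1 and Mptx1 (0.400 to -0.598) and of Lyz1 and Mptx2 (0.767 to -0.086) changed sign as well. Lyz1 and Ang4 went from 0.889 to 0.193. For the 3 genes named with Lyz1 the r was then 0.937 to 0.951, and over all pairs of a member and a named gene it was 0.735 to 0.968.

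Genes that act with the members or belong to their families were taken from lists of related genes. Of 11 genes tied to the sorting of lysozyme into granules and to granule state, 9 were tested, 4 were called higher and none lower, with a median log2 fold change of 0.31 against 0.03 for all tested genes, of which 43.0% were called (23.4% higher). Without TNF replicate 4 there were 5 called higher and 1 lower (median 0.44), where 50.4% of all tested genes were called. Nod2, the sensor of muramyl dipeptide from peptidoglycan, rose by 3.39 on the log2 scale (SE 0.28, edgeR adjusted p = 6.57e-06), with 0.580 ± 0.176 normalized CPM in PBS and 6.07 ± 1.64 in TNF (SD, n = 4). Its kinase Ripk2 rose by 3.21 (SE 0.19, adjusted p = 7.62e-07), from 1.63 ± 0.427 to 15.3 ± 2.10. Xbp1, a factor of the unfolded protein response needed for PC granules, rose by 1.19 (SE 0.15, adjusted p = 0.000135), and the autophagy gene Atg16l1 by 0.94 (SE 0.16, adjusted p = 0.000710). For Rab2a, the GTPase that acts with Nod2 and Ripk2 in lysozyme sorting, the value was -0.02 (SE 0.11, adjusted p = 0.895). The disulfide isomerase Agr2 had 0.17 (adjusted p = 0.858), but without TNF replicate 4 it was called lower, at -1.28 (adjusted p = 4.14e-05), and the granule GTPase Rab27a was called higher (adjusted p = 0.00520). With library size alone only Nod2 and Ripk2 of this list were called.

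Of 14 other products of PC granules, all were tested, 3 were called higher and 1 lower, with a median of 0.12, beside the 43.0% called over all tested genes. Without TNF replicate 4 there were 4 higher and 2 lower (median -0.06), beside the 50.4% of that fit. The lectins Reg3g and Reg3b rose by 1.80 (SE 0.28, edgeR adjusted p = 0.000466) and 2.29 (SE 0.41, adjusted p = 0.00107), and the phospholipase Pla2g2a by 1.01 (SE 0.15, adjusted p = 0.000324). The vitamin B12 carrier Tcn2 fell, by a value of -0.53 on the log2 scale (SE 0.14, adjusted p = 0.0125). With library size alone Reg3b and Reg3g were still called higher, and Ccl6 was called lower. Without TNF replicate 4 Ccl6 was likewise called lower (adjusted p = 0.00315) and Pigr, which carries immunoglobulin A across the epithelium, higher (adjusted p = 0.0379). Mmp7, the protease that activates alpha-defensins, was at 3192 to 4302 normalized CPM in 7 libraries and at 14528 in TNF replicate 4.

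Among 15 other genes of the ribonuclease A superfamily and binding partners of angiogenin, 4 were tested, of which 2 were called higher and none lower (median 0.41), again beside 43.0% of all tested genes. Both were also called without TNF replicate 4 (median 0.37, again beside 50.4%). Plxnb2, a receptor of angiogenin, rose by 1.27 (SE 0.12, edgeR adjusted p = 1.75e-05), from 87.4 ± 7.29 to 211 ± 19.0 normalized CPM. The ribonuclease inhibitor Rnh1 rose by 0.58 (SE 0.15, adjusted p = 0.00886), from 64.3 ± 7.63 to 96.1 ± 16.9. Neither was called with library size alone. Of 8 other pentraxins and intelectin paralogs, 7 were in the table and 3 were tested (median -0.49). The neuronal pentraxin Nptx2 had 2, 4, 3 and 5 counts in PBS and 137, 257, 113 and 49 in TNF. In normalized CPM it read 0.108 ± 0.0398 and 5.48 ± 2.31 (log2 difference 5.66, SE 0.40, adjusted p = 2.19e-06). Nptx1 fell from 5.43 ± 1.42 to 0.715 ± 0.332 (log2 fold change -2.91, SE 0.32, adjusted p = 4.27e-05), with 8 counts in TNF replicate 4. Nptxr was not called (-0.49, adjusted p = 0.305), and the calls of this list were the same genes without TNF replicate 4. Of 9 other genes of the lysozyme family none was tested, and 7 were at 0 in all libraries. The other 2 were Lyzl4, with 3 to 5 counts in PBS and 12, 12, 10 and 3 in TNF, and Lalba, with 0 in PBS and 5, 5, 12 and 1 in TNF. Lyzl4 was called higher without TNF replicate 4 or PBS replicate 2 or 3, the fits in which it passed the filter, and Lalba was called higher with no filter. Lyzl4 and Nptx2 pass the filter only through the libraries where they are high, so their calls are not counted as differences.

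**Figure D5:**
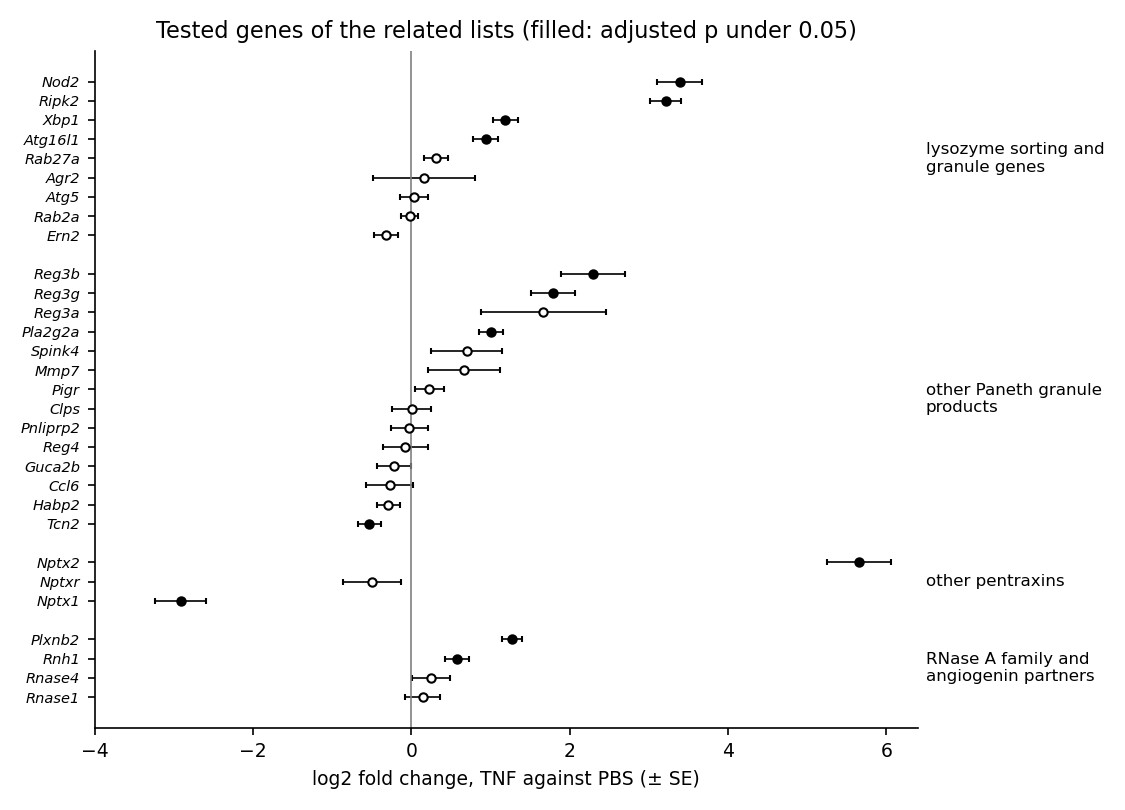
Log2 fold change of TNF against PBS with its SE (horizontal axis) for the tested genes of 4 related lists, with filled points for an edgeR adjusted p under 0.05. Nod2, Ripk2 and Nptx2 lie above 3, Nptx1 lies at -2.91, and 7 of the 14 other granule products lie within 0.5 of 0. Nptx2 passed the filter on low counts only through the TNF libraries.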

How the data were processed

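RNA-seq was made from sorted PCs of 4 PBS and 4 TNF mice, with 1 library each, grouped by the labels. RNA was isolated with an Aurum kit and sequenced from TruSeq Stranded mRNA libraries. The deposited table holds raw counts per Ensembl gene ID that the authors did not normalize. The submitters' processing notes name STAR 2.7.10a, FastQC 0.12, DESeq2 and the mm39 build; the counter, strand setting and annotation were not given in the sources used here. Each of the libraries is taken as 1 replicate.

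Symbols, exon lengths and transcripts came from GENCODE release 39 for mouse (GRCm39). Of 55414 IDs 54749 were matched, and the other 665 stayed in library sizes and tests. Upstream sequences came from RefSeq (GRCm38.p6) and were matched by symbol for all 9 members. The quasi-likelihood test of edgeR 4.0.16 (R 4.3.3) was run on all genes with TMM factors, the filterByExpr filter, no covariate and Benjamini-Hochberg adjustment over all tested genes, with an adjusted p under 0.05 as the threshold. Normalized CPM are scaled by the TMM-adjusted library size, plain CPM by all counts. SEs came from the F statistic. Levels per kb used the union of exons. Ratios to Lyz1 were tested by exact permutation (two-sided) over 70 assignments of the libraries. Log2 CPM for correlations had a prior count of 2. No libraries of a group were duplicates (lowest chi-square per degree of freedom 8.77). The depth of 23824717 to 32576077 counts sets a limit of 3 counts where a library had 0. On counts simulated for TNF against PBS (13536 genes tested), 88 of 89 genes changed by 1 log2 unit and 111 of 111 changed by 2 were recovered. There were 8 false calls. All simulated libraries were drawn from the PBS means, and none stood apart as TNF replicate 4 does. The recovery therefore does not tell how well a change of the members would be found.

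The members, gene lists and alternatives were chosen with earlier results of these data known. The text names all members, in each related list the 3 genes with the smallest p and all called genes, and for each member the 3 most alike genes. Kit, Cd24a, Clca1, Fcgbp, Rab2a, Agr2, Rab27a, Mmp7, Pigr, Ccl6, Defa21, Sox9, Cd14, Csf1r, Ctss, Ptprc, Lyzl4 and Lalba were named after their values were seen. Alternatives were library size alone, RLE scaling, TMM factors without Defa genes and members, no filter, at least 1 CPM in 4 libraries, DESeq2 1.42.0, limma-voom (limma 3.58.1), a replicate block, an adjusted p under 0.01, a linear ratio, the longest transcript as length, plain CPM, and leaving out each library. Levels per kb without PBS replicate 1 and correlations without TNF replicate 4 were added after seeing the data.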

Additional observations from a re-analysis of the deposited data

Results flagged for a closer look

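Each group of 4 libraries was examined for a single library far from the rest (Dixon's ratio of gap to range above its critical value), over 40 combinations of member, group and scale, of which 14 were flagged. Chance flags about 1 in 20 such groups, and the scales are not independent.

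TNF replicate 4 was flagged 9 times. In normalized CPM it was high for Lyz1 (454156, the others 139824 to 165440), Lyz2 (64.3, the others 9.44 to 12.2), Ang4 (32893, the others 8477 to 11791) and Mptx1 (23.1, the others 4.97 to 5.61). As a percentage of counts it was high for Lyz2 (0.00288) and Mptx1 (0.00104) and low for Itln1 (3.42). Per 1000 Lyz1 counts it was high for Lyz2 (0.142) and low for Itln1 (168).

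PBS replicate 1 was flagged for Mptx1 on all 3 scales, at 28.9 normalized CPM, 0.00364% of counts and 0.238 per 1000 Lyz1 counts. It was also flagged for Ang4 at 114 per 1000 Lyz1 counts, where the other PBS libraries had 71.0 to 72.5. PBS replicate 2 was flagged for Ang at 0.449 per 1000 Lyz1 counts, against 0.521 to 0.526 in the others.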

How the results depend on the processing

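Of 110 refitted fold changes of the 7 members, 100 kept their direction and their side of the threshold. As all 7 were uncalled in the main fit, keeping that side says little about how stable their sizes were. The 60 refitted ratios kept their direction, and since the exact tests are coarse their side of the threshold says nothing about stability. With library size alone the log2 fold changes of Ang4, Itln1 and Mptx2 reversed to -0.24, -0.28 and -0.32, and 3182 genes were called in place of 5747. Without the filter Lyz2 passed the threshold (log2 fold change 1.25), so that 1 member was called, and in no other setting that kept all libraries was one. Leaving out 1 library gave 4756 to 6922 called genes and 0 to 1 called members, which was Lyz2 without TNF replicate 1 or 3. The lowest and highest log2 fold changes were then 0.14 and 0.84 for Lyz1, 0.24 and 1.63 for Lyz2, -0.22 and -0.04 for Ang, -0.21 and 0.63 for Ang4, 0.01 and 0.23 for Itln1, -1.18 and 0.55 for Mptx1, and -0.52 and 0.83 for Mptx2. Equal replicate numbers did not deviate together (correlations -0.14 to 0.07), and PBS replicates 3 and 4 correlated best with another number. With the replicate number as a block 5087 genes and 0 members were called, and Mptx2 reversed to -0.080. The exact sign-flip permutation test of ratios cannot go below p = 0.125. Levels per kb moved to 9611 for Ang4 with the longest transcript, and to 10649 for Mptx2 and 21.2 for Ang in plain CPM. DESeq2 gave no adjusted p for Lyz2 and Mptx1. The cause of these shifts was not tested. At this depth a gene under 3 counts in a library could not be told from 0.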
